A study of Mus musculus with 2 samples.

Results

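The AP-1 transcription factor family was followed here in alveolar macrophages (AMs) as 10 genes, *Jun*, *Junb*, *Jund*, *Fos*, *Fosb*, *Fosl1*, *Fosl2*, *Atf3*, *Maff* and *Batf*, of the 32285 genes listed. The members were chosen by name, with earlier results of these data known, and each symbol was matched to 1 Ensembl gene identifier. AP-1 is a dimer of basic leucine zipper (bZIP) proteins. JUN proteins pair among themselves or with FOS, ATF or BATF proteins and bind short DNA motifs, and most of these genes are immediate early genes whose mRNA appears soon after a stimulus. JUN is activated by the kinase JNK, which acts below Toll-like receptor 4 and its adaptor MyD88 in macrophages, and AP-1 is known for driving cytokine and tissue remodelling genes there. Small MAF proteins such as MAFF lack a transactivation domain and pair with other bZIP proteins.

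The study compared AMs of female C57BL/6 mice with an orthotopic tumor of Lewis lung carcinoma (LLC) cells, a mouse lung cancer line that here carried stable tdTomato and was implanted in the left lung, with AMs of mice given vehicle by the same route. Both libraries were labelled with an age of 10 weeks. The lungs were minced and digested with collagenase and dispase, and AMs were sorted as CD45+, autofluorescent, Siglec-F+ and F4/80+ cells. Whether mRNA of immediate early or heat shock genes rose during this preparation was not tested. There was 1 droplet library per condition, and the number of mice behind each was not given in the sources used here, so that no test was possible and library and condition cannot be told apart. The methods describe hashtag counts that assigned barcodes to samples; these were not used here, and each library was taken as 1 sample.

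Cells were barcodes with at least 500 detected genes and at most 10% mitochondrial unique molecular identifiers (UMIs), which left 6185 control and 7666 tumor cells with medians of 10370 and 8264 UMIs. Levels are the UMIs of a gene summed over cells and divided by all UMIs of those cells, on the CPM scale, and ratios are given as log2. Levels carry exact 95% Poisson intervals, ratios exact conditional binomial intervals and shares exact binomial intervals, and all of them cover counting error only. UMIs were counted at the 3′ end and were not divided by transcript length. The 16 AM markers summed to 21409.5 CPM in the control and 18237 CPM in the tumor library, and none of them was at 0. Markers of monocytes or tumor-associated macrophages summed to 19.6 and 89.3 CPM over 10 genes, and those of neutrophils to 114 and 149.9 CPM over 7 genes, with the neutrophil genes *Retnlg* and *Ly6g* at 0 in the tumor library. Epithelial markers summed to 125 and 41.3 CPM over 7 genes and fibroblast markers to 0.771 and 32.4 CPM over 6 genes, with *Lum* at 0 in the control library. The lists of T and NK, B, dendritic and endothelial cells summed to 1.26 to 32.6 CPM. The part of these cells in the AP-1 levels was not tested. The libraries shared 25 barcode sequences, 17 of them among the cells kept.

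The promoters of *Jun*, *Fos*, *Junb* and *Fosb* are shown first because these genes form the pairs with the highest correlation across cells in each library. They are the 150 bases before the RefSeq transcription start in GRCm38.p6, on the strand of the gene, with matches to the searched AP-1 and cAMP response motifs in capitals. The windows lie at chr4:95052223-95052372 on the minus strand for *Jun*, chr12:85473740-85473889 on the plus strand for *Fos*, chr8:84978749-84978898 on the minus strand for *Junb* and chr7:19310046-19310195 on the minus strand for *Fosb*.
Jun: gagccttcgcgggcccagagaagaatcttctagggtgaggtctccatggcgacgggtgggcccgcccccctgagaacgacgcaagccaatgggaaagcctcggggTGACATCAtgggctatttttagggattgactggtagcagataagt
Fos: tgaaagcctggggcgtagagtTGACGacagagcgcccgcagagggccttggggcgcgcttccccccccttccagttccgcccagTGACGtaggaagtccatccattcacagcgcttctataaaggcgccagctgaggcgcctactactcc
Junb: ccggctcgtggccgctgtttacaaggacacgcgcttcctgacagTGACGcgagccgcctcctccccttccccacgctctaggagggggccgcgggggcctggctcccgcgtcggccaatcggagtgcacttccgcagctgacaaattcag
Fosb: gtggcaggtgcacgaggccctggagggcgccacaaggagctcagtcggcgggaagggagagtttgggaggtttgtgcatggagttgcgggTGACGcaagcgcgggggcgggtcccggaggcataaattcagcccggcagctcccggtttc

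The motifs searched on both strands, from 250 bases before to 50 after each start, were TGACTCA (the classical AP-1 site), TGACATCA (a variant of it), TGACGTCA (the cAMP response element), its first letters TGACG, which any TGACGTCA also holds, and the serum response element. A promoter table entry was found for 9 of the 10 members, all but *Fosl1*. Positions are given relative to the start. *Jun* held TGACATCA at −45, and 3.62% of all 32851 promoters held that motif. *Fos* held TGACG at −129 and −66, *Junb* at −106, *Fosb* at −60, *Batf* at −98 and, on the other strand, *Atf3* at −7, and 20.8% of all promoters held it. Of the 3 starts listed for *Maff*, 1 held TGACGTCA at −29, as did 1.79% of all promoters, and another held TGACATCA at −45. That start also held TGACG at −122 on the other strand. The windows of *Fosl2* and *Jund* held no match, but the RefSeq start of *Jund* lies before, and those of *Fosl2* and *Atf3* inside, the gene spans printed below, so that these windows are not at the outer start of those spans. Both *Maff* starts with a match also lie inside its span, and the outermost of its 3 starts held no match. TGACTCA, held by 5.20% of all promoters, and the serum response element, held by 1.63%, had no match in the members' windows, which says only that these letters are not there. The matches are a description and were not linked to binding.

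Across the 2 libraries, the family as a whole stood at 4019 CPM (4003 to 4034) in the control and 6019.65 CPM (6001 to 6038) in the tumor library, which is 0.58 (0.58 to 0.59) as log2. *Junb*, *Fos* and *Fosl2* were higher in the tumor library by a log2 ratio over 0.7, *Fosb* by 0.50, and *Jun*, *Jund*, *Atf3* and *Maff* by about 0.2, while the interval of *Batf* held 0. In cells without UMIs of the heat shock genes *Hspa1a* and *Hspa1b*, *Jun* turned to −0.39 (−0.44 to −0.35) and *Atf3* was at 0.01 (−0.01 to 0.04). A change of at least 2-fold was met by 1 member, *Fosl1*, against 4.30% of the 12936 genes that had 10 or more UMIs in the control and in the tumor library. No member was at least 2-fold lower, against 5.16% of those genes. The interval lay above 0 for 9 of the 10 members, against 26.0% of those genes, many of which have few UMIs and therefore wide intervals. The median log2 ratio was 0.36 over the members and −0.07 over all 12936 genes.

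**Figure D1:**
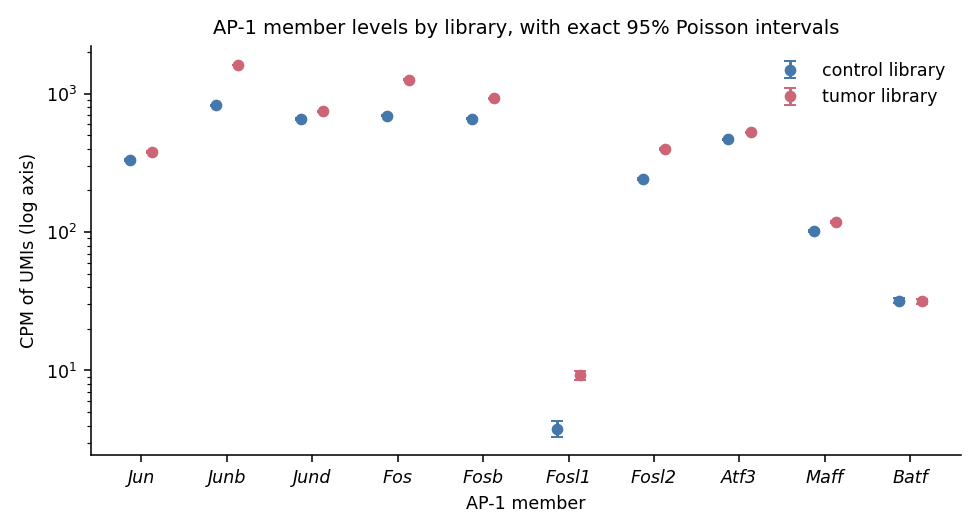
Level of each AP-1 member in CPM of UMIs on a log axis, with 1 point per library (control blue, tumor red) and exact 95% Poisson bars. The points of *Junb* (828 and 1616 CPM) and *Fos* (696 and 1260.5 CPM) are clearly apart, those of *Batf* (31.9 and 31.6 CPM) coincide, and *Fosl1* lies below 10 CPM in both libraries.

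Among the Jun genes, *Junb* (ENSMUSG00000052837, chr8:84974484-84978718, minus strand), whose protein pairs with FOS proteins and can oppose JUN, took 20.6% of the family's UMIs in the control and 26.8% in the tumor library. Its level was 828 CPM (821 to 835) in the control and 1616 CPM (1607 to 1626) in the tumor library, which is 0.96 (0.95 to 0.98) as log2, just under 2-fold, and it passed 2-fold under 3 of 9 alternative settings. Of the 12936 genes, 577 had a higher ratio. *Jund* (ENSMUSG00000071076, chr8:70698949-70700616, plus strand), known as the more constitutive Jun gene, was at 658 CPM (652 to 664) and 748 CPM (742 to 755), which is 0.19 (0.17 to 0.20) as log2. *Jun* (ENSMUSG00000052684, chr4:95049034-95052222, minus strand), the target of JNK, was at 330.4 CPM (326 to 335) and 380.2 CPM (376 to 385), which is 0.20 (0.18 to 0.23) as log2. Its share of the family's UMIs was 8.22% in the control and 6.32% in the tumor library, so that the share of *Junb* was higher and that of *Jun* lower in the tumor library.

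Among the Fos genes, whose proteins bind DNA only with a JUN partner, *Fos* (ENSMUSG00000021250, chr12:85473890-85477273, plus strand) was at 696 CPM (689.8 to 703) in the control and 1260.5 CPM (1252 to 1269) in the tumor library, which is 0.86 (0.84 to 0.87) as log2. *Fosb* (ENSMUSG00000003545, chr7:19302696-19310051, minus strand) was at 659 CPM (653 to 666) and 929 CPM (922 to 937), which is 0.50 (0.48 to 0.51) as log2. *Fosl2* (ENSMUSG00000029135, chr5:32135801-32157842, plus strand), which encodes the later and longer lived FRA-2, was at 241 CPM (237 to 245) and 399.8 CPM (395 to 405), which is 0.73 (0.70 to 0.76) as log2. These 3 genes and *Fosl1* together held 39.8% of the family's UMIs in the control and 43.2% in the tumor library, whereas the share of the 3 Jun genes was 45.2% and 45.6%.

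*Fosl1* (ENSMUSG00000024912, chr19:5447547-5455946, plus strand), which encodes FRA-1, had 245 UMIs in the control and 633 in the tumor library. Its level was 3.78 CPM (3.32 to 4.28) and 9.20 CPM (8.50 to 9.95), which is 1.28 (1.07 to 1.503) as log2. With every cell thinned at random to 3800 UMIs, it was seen in 1.68% (1.36 to 2.05) of control and 3.30% (2.89 to 3.75) of tumor cells, against 3.75% and 6.93% before thinning. Genes of cells outside the sort were seen in similarly few cells. *Sftpc*, an alveolar epithelial gene, was seen in 5.55% of control and 3.17% of tumor cells and *Scgb1a1*, an airway club cell gene, in 3.83% and 2.19%. These shares were lower in the tumor library, and that of *Fosl1* was higher. RNA of the implanted LLC cells, which only the tumor condition had, was not gauged here. The part of free RNA in the *Fosl1* UMIs was not tested. At this depth its level, ratio and shares rest on few UMIs and are not read as the share of cells that express it.

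Of the remaining members, *Atf3* (ENSMUSG00000026628, chr1:191170296-191218039, minus strand), a stress-induced gene whose protein restrains inflammatory transcription in macrophages, was at 469 CPM (464 to 474) in the control and 527 CPM (521 to 532) in the tumor library, which is 0.17 (0.15 to 0.19) as log2. *Maff* (ENSMUSG00000042622, chr15:79346621-79359076, plus strand), a small MAF gene, was at 102 CPM (99.4 to 104) and 118 CPM (116 to 121), which is 0.22 (0.17 to 0.26) as log2. *Batf* (ENSMUSG00000034266, chr12:85686669-85709087, plus strand), best known in lymphocytes, where its protein pairs with JUN proteins, was at 31.9 CPM (30.5 to 33.3) and 31.6 CPM (30.3 to 33.0), which is −0.01 (−0.10 to 0.08) as log2. For *Batf* no difference beyond counting error was detectable.

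The members differed in how their UMIs were spread over cells. After thinning to 3800 UMIs, which left 5590 control and 6937 tumor cells and left out 595 and 729 shallower ones, *Junb* was seen in 86.7% (85.8 to 87.6) of control and 96.6% (96.1 to 97.0) of tumor cells. Before thinning these shares were 94.6% and 98.5%. Cells with at least 10 thinned *Junb* UMIs made up 3.60% (3.12 to 4.12) of the control and 22.0% (21.0 to 22.9) of the tumor cells. *Fos* was seen in 78.1% (77.0 to 79.2) and 91.4% (90.7 to 92.0) of thinned cells, against 90.3% and 95.4% unthinned, and at least 10 UMIs were found in 3.43% (2.97 to 3.95) and 13.1% (12.3 to 13.9). In the median cell, unthinned, *Junb* was at 6.94 and 15.5 and *Fos* at 4.81 and 10.3 UMIs per 10000 UMIs. *Fosl2* was seen in 56.7% (55.4 to 58.0) and 71.6% (70.5 to 72.6) of thinned cells, against 82.7% and 87.6% unthinned, and *Fosb* in 83.3% (82.3 to 84.2) and 89.2% (88.4 to 89.9), against 92.98% and 95.1%. No cell type that should lack these genes was present in either library, so their background level in free RNA could not be measured.

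*Jun* had the highest ratio of variance to mean of the members across thinned cells, 4.02 in the control and 5.44 in the tumor library, against 2.48 and 2.96 for *Junb*. It was seen in 49.1% (47.8 to 50.4) of thinned control and 46.1% (44.9 to 47.3) of thinned tumor cells, against 67.8% and 60.7% unthinned, and no order is read from this share, since it runs against the summed level. Cells with at least 10 thinned *Jun* UMIs were 1.70% (1.38 to 2.07) of the control and 2.90% (2.52 to 3.32) of the tumor cells. The top 10% of cells held 52.5% and 56.6% of its thinned UMIs, compared with 29.1% and 24.1% for *Junb*. In UMIs per 10000 UMIs of a cell, unthinned, the median cell had 1.43 in the control and 1.25 in the tumor library, and the 90th percentile was 8.80 and 11.8. *Atf3* also had a share that ran against its summed level, and was seen in 73.3% (72.2 to 74.5) and 70.5% (69.4 to 71.6) of thinned cells (87.3% and 82.5% unthinned), with at least 10 thinned UMIs in 0.429% (0.275 to 0.638) and 1.64% (1.36 to 1.97). *Jund* was seen in 87.8% and 88.6% of thinned cells (95.5% and 95.9% unthinned), *Maff* in 31.0% and 34.5% (56.2% and 55.7%) and *Batf* in 10.9% and 11.6% (26.8% and 23.2%). A median of 6 members was seen per thinned cell in either library, but at least 7 members were seen in 26.6% of control and 37.3% of tumor cells and at most 4 in 20.9% and 10.8%.

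**Figure D2:**
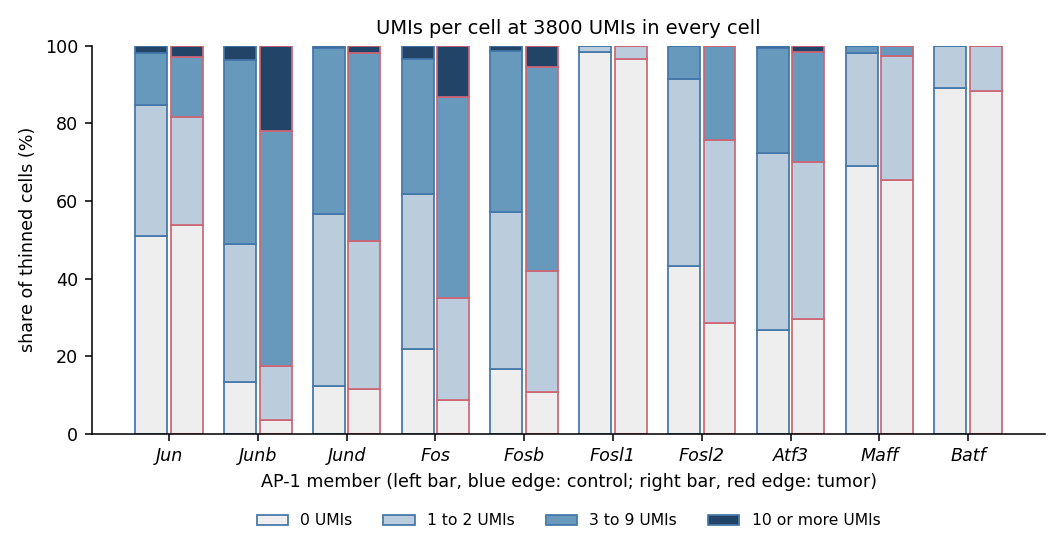
Share of cells (in %) with 0, 1 to 2, 3 to 9 or 10 or more UMIs of each AP-1 member after every cell was thinned to 3800 UMIs, with the control library in the left and the tumor library in the right bar of each pair. The part of the *Junb* bars with 10 or more UMIs is 3.60% and 22.0% of cells, and that of *Jun* is 1.70% and 2.90%.

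The ratios were then taken within subsets of cells split by depth, mitochondrial share or heat shock transcripts. The log2 ratio of tumor over control of *Junb* ran from 0.76 to 1.10, of *Fos* from 0.66 to 1.02 and of *Fosl2* from 0.48 to 0.87 over tertiles of UMIs per cell, tertiles of mitochondrial share, cells with or without *Hspa1a* or *Hspa1b* UMIs, and the Apoe+S100a6 subsets described below. These 3 members were above 0 in each of the 10 subsets, of which the tertiles, the cells with *Hspa1a* or *Hspa1b* UMIs and the cells low in both *Apoe* and *S100a6* were added after the data had been seen. *Fosb* (0.35 to 0.60), *Fosl1* (0.66 to 1.47) and *Jund* (0.07 to 0.30) were also above 0 in each subset. *Maff* ran from 0.06 to 0.35, with an interval that held 0 in the deepest tertile. *Jun* turned direction with the mitochondrial share. It was at 0.64 in the tertile of cells with the lowest mitochondrial share, at −0.05 in the middle and at −0.19 in the highest tertile. By depth it was at 0.33 and 0.35 in the shallow and middle tertiles and at 0.01 (−0.03 to 0.04) in the deepest.

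*Jun* also turned direction with heat shock transcripts. *Hspa1a* and *Hspa1b*, near-identical genes of the inducible HSP70 chaperone between which reads may be split, were at 111 and 106 CPM in the control and at 260.3 and 311 CPM in the tumor library. Cells with no UMI of either made up 74.7% of the control and 61.9% of the tumor cells. In these cells *Jun* was at 206 CPM in the control and 157 CPM in the tumor library, which is −0.39 (−0.44 to −0.35) as log2, the opposite direction to all cells. In cells with 1 or more such UMIs it was at 648 and 701 CPM, which is 0.11 (0.08 to 0.15) as log2. These cells were not matched between the libraries for the number of such UMIs. *Atf3* was at 0.01 (−0.01 to 0.04) in the cells without and 0.25 (0.21 to 0.28) in the cells with such UMIs, whereas *Junb* was at 817 and 1631 CPM in the cells without, and at 0.90 (0.87 to 0.92) as log2 in the cells with them.

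**Figure D3:**
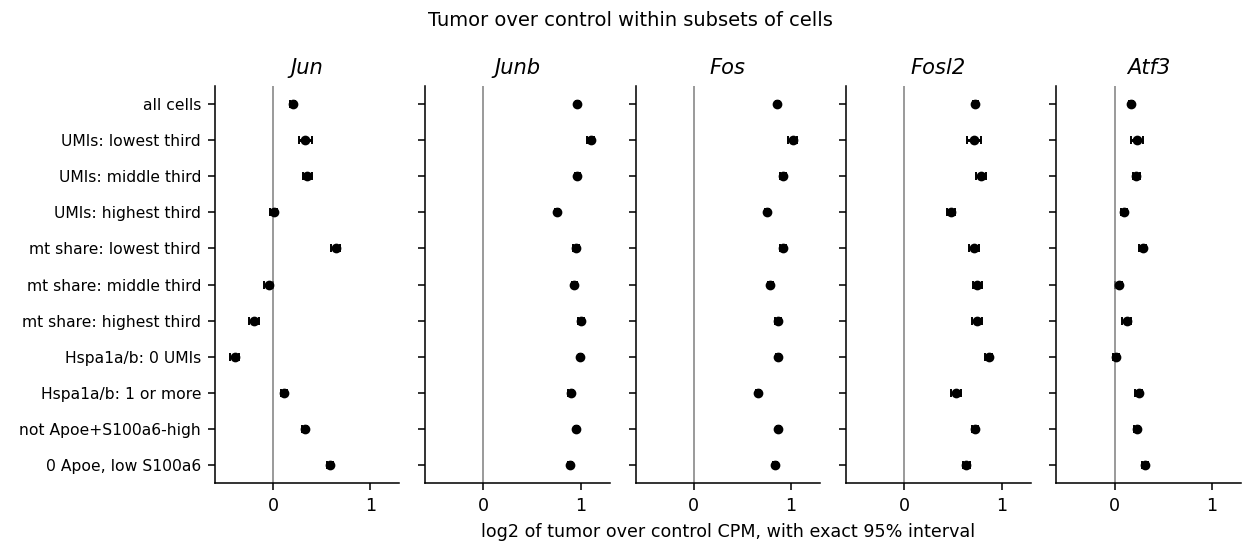
Log2 ratio of tumor over control CPM (horizontal axis) of *Jun*, *Junb*, *Fos*, *Fosl2* and *Atf3* in all cells and in 10 subsets (rows), with exact 95% intervals. *Junb*, *Fos* and *Fosl2* stay above 0 in each row, and *Jun* runs from −0.39 in cells without *Hspa1a* and *Hspa1b* UMIs to 0.64 in the tertile of cells with the lowest mitochondrial share.

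Within each library, cells with an *Hspa1a* or *Hspa1b* UMI had more *Jun* than cells without, by a log2 ratio of 1.66 (1.62 to 1.70) in the control and 2.16 (2.12 to 2.20) in the tumor library. *Fos* was higher in them by 0.73 (0.70 to 0.76) and 0.53 (0.51 to 0.55), *Atf3* by 0.31 (0.28 to 0.35) and 0.54 (0.51 to 0.57), and *Jund* by 0.24 (0.22 to 0.27) and 0.37 (0.35 to 0.40). *Junb* hardly differed, at 0.07 (0.04 to 0.09) in the control and −0.03 (−0.05 to −0.01) in the tumor library. *Fosl2* was lower in them, at −0.10 (−0.16 to −0.05) and −0.44 (−0.48 to −0.41). The cells with such UMIs were deeper, with medians of 11265 against 10029.5 UMIs in the control and 8893.5 against 7881.5 UMIs in the tumor library, and the part of depth in this contrast was not tested. These contrasts lie within 1 library each and compare cells, not animals.

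Apoe+S100a6-high cells had at least 2 *Apoe* UMIs and at least 5 *S100a6* UMIs per 10000. *Apoe* encodes a lipid transport protein that macrophages secrete, and *S100a6* a small calcium-binding protein. The tumor library held 1032 such cells, 13.5% (12.7 to 14.2) of its cells, and the control library 29, 0.469% (0.314 to 0.673), too few to be compared. The tumor cells at the limits were 193 with exactly 2 *Apoe* UMIs inside and 350 with 1 outside, and 93 with 5 to 6 *S100a6* UMIs per 10000 inside and 88 with 4 to 5 outside. The Apoe+S100a6-high cells were deeper than the other tumor library cells, with medians of 10466 and 7993 UMIs. AM markers summed to 12793 CPM in them and 19337 CPM in the others, monocyte or tumor-associated macrophage markers to 239 and 59.0 CPM, neutrophil markers to 206 and 138 CPM and fibroblast markers to 68.7 and 25.0 CPM, and the part of those in the AP-1 values was not tested. The limit of 2 *Apoe* UMIs was not scaled to depth. Within the tumor library, *Junb* was at 2085 CPM in the lowest and 1346 CPM in the highest depth tertile. *Fosl2* was at 524 and 313 CPM and *Fosb* at 1113 and 794 CPM. Only *Fosl1* of the members was higher in the highest tertile, at 8.42 and 9.22 CPM. The part of depth in the AP-1 values of the Apoe+S100a6-high cells was not tested.

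No member differed 2-fold between these cells and the other cells of the tumor library, against 3.04% of 10979 genes that were at least 2-fold higher and 3.22% that were at least 2-fold lower. *Jun* came closest. It was at 211 CPM (203 to 219.6) in the Apoe+S100a6-high cells and 414 CPM (409 to 419.7) in the others, which is −0.97 (−1.03 to −0.91) as log2, and passed 2-fold under 4 of the 11 alternative settings. *Atf3* was at 415 and 549 CPM, which is −0.40 (−0.45 to −0.36) as log2, and *Maff* at 96.2 and 123 CPM, which is −0.35 (−0.44 to −0.26) as log2. *Junb* was at 1704 CPM (1679.9 to 1728) and 1598 CPM (1588 to 1609), which is 0.09 (0.07 to 0.11) as log2, but it was at −0.01 with limits of 3 *Apoe* UMIs and 8 *S100a6* UMIs per 10000, and at 0.01 (−0.02 to 0.05) in cells with *Hspa1a* or *Hspa1b* UMIs. *Fos* was at 1207 and 1271 CPM, which is −0.07 (−0.10 to −0.05) as log2, *Fosb* at 837 and 948 CPM, which is −0.18 (−0.21 to −0.15) as log2, and *Jund* at 664 and 765 CPM, which is −0.20 (−0.24 to −0.17) as log2. For *Fosl2*, at 407 and 398 CPM at log2 0.03 (−0.01 to 0.08), and *Batf*, at 34.0 and 31.1 CPM at log2 0.13 (−0.04 to 0.28), the interval held 0. *Fosl1* was at 11.6 and 8.72 CPM, from 134 and 499 UMIs, which is 0.41 (0.12 to 0.69) as log2.

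The interval lay below 0 for 6 of the 10 members, against 34.9% of the 10979 genes, and above 0 for 2, against 14.1%. Many of the 10979 genes have few UMIs and therefore wide intervals. The median log2 ratio was −0.13 over the members and −0.11 over all 10979 genes. Relative to that median, *Jun* was at −0.86, *Atf3* at −0.29, *Maff* at −0.24, *Jund* at −0.09, *Fosb* at −0.07, *Fos* at 0.04, *Fosl2* at 0.14, *Junb* at 0.20, *Batf* at 0.24 and *Fosl1* at 0.52. *Fos* therefore changed sign with the scaling.

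*Hspa1a* was at 127 CPM in the Apoe+S100a6-high cells and 287 CPM in the others, which is −1.17 (−1.25 to −1.10) as log2, and *Hspa1b* at 137 and 346 CPM. The share of cells with a UMI of either was 35.9% (32.9 to 38.9) and 38.4% (37.3 to 39.6). In cells with such UMIs, *Jun* was at 342 CPM in the Apoe+S100a6-high cells and 771 CPM in the others, which is −1.17 (−1.25 to −1.10) as log2. In cells without, it was at 124 and 163 CPM, which is −0.40 (−0.50 to −0.29) as log2. *Jun* was lower in the Apoe+S100a6-high cells in both subsets. The cells with such UMIs were not matched for the number of them, and the part of heat shock transcripts in this contrast was not tested. The values in cells with such UMIs were added after the data had been seen.

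**Figure D4:**
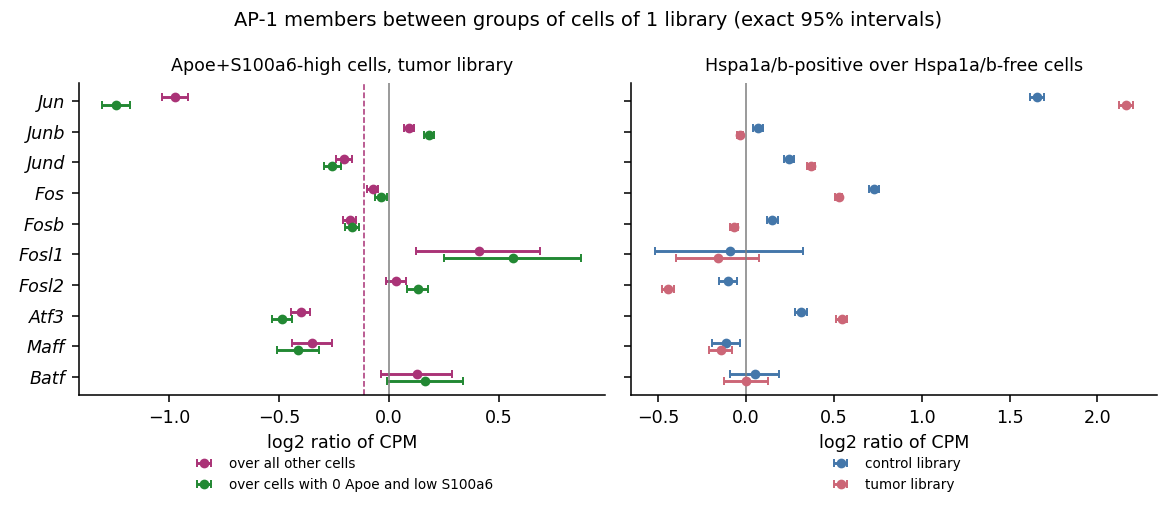
Log2 ratio of CPM of each AP-1 member with exact 95% intervals, on the left for Apoe+S100a6-high cells of the tumor library over all its other cells or over cells with 0 *Apoe* UMIs and low *S100a6* (dashed line: median of all genes over the other cells), on the right for cells with an *Hspa1a* or *Hspa1b* UMI over cells without, in each library. *Jun* has the leftmost points on the left (−0.97 over the other cells and −1.24 over the cells low in both) and the rightmost on the right (2.16 in the tumor library).

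With the Apoe+S100a6-high cells left out, 6156 control and 6634 tumor cells remained. The interval of the ratio of tumor over control was above 0 for 9 of the 10 members, against 27.4% of 12810 genes, and the median log2 ratio was 0.42 over the members and −0.04 over all genes. Many of the 12810 genes have few UMIs and therefore wide intervals. *Junb* was at 826 and 1598 CPM, which is 0.95 (0.94 to 0.97) as log2, *Fos* at 697 and 1271 CPM, which is 0.87 (0.85 to 0.88) as log2, and *Fosl2* at 241 and 398 CPM, which is 0.73 (0.70 to 0.76) as log2. These 3 values were close to those over all cells. *Jun* was at 331 and 414 CPM, which is 0.33 (0.30 to 0.35) as log2. In the 5580 control and 3893 tumor cells with 0 *Apoe* UMIs and under 5 *S100a6* UMIs per 10000, *Junb* was at 0.89 (0.87 to 0.91) and *Jun* at 0.58 (0.55 to 0.61).

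Co-expression was described by Pearson's r across thinned cells of log2(UMIs + 1), separately in each library, for the 45 pairs. The cells of a library share its preparation, and counts per cell are low, so that the values are descriptions without a p. The median r was 0.02 in the control and 0.04 in the tumor library. An r of at least 0.2 was reached by 2 pairs in the control and 6 in the tumor library, and 1 pair, *Jun* and *Fos*, reached it in both, with r of 0.31 in the control and 0.23 in the tumor library. Cells with UMIs of both these genes were 1.07 times as many as independence would give in the control and 1.03 times in the tumor library. *Fos* and *Fosb* were at 0.24 and 0.18, *Junb* and *Fosb* at 0.197 and 0.28, *Junb* and *Fos* at 0.19 and 0.23, *Junb* and *Fosl2* at 0.16 and 0.25, *Jun* and *Jund* at 0.15 and 0.23, and *Jun* and *Atf3* at 0.12 and 0.23. *Jun* and *Junb*, the members of one subfamily with the motifs shown above, were at 0.02 and 0.04. *Jun* and *Fosl2* had the lowest r in both libraries, −0.05 and −0.10.

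In cells without *Hspa1a* and *Hspa1b* UMIs, r of *Jun* and *Fos* was 0.20 in the control and 0.15 in the tumor library, and *Junb* and *Fosb* became the pair at 0.2 or more in both. *Junb* and *Fos* changed little, to 0.19 and 0.25. On log2(UMIs per 10000 + 1) of cells that were not thinned, 7 pairs reached 0.2 in both libraries. This setting changed the scaling and the thinning together.

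**Figure D5:**
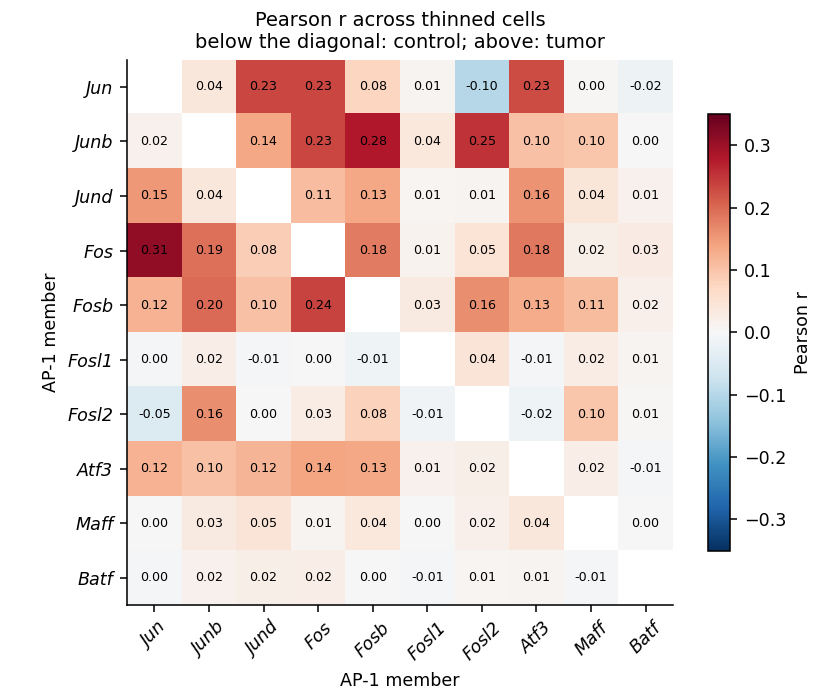
Pearson's r of each pair of AP-1 members across thinned cells, with the control library (5590 cells) below and the tumor library (6937 cells) above the diagonal. *Jun* and *Fos* have the highest r of the control library (0.31), *Junb* and *Fosb* that of the tumor library (0.28), and rows of *Fosl1* and *Batf* lie near 0.

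The genes outside the family with the most similar pattern were ranked by the smaller of the r in the 2 libraries, among 4395 genes seen in at least 10% of thinned cells of both. For *Jun* they were *Hspa1a* (0.41 in the control and 0.53 in the tumor library), *Hspa1b* (0.39 and 0.53) and the immediate early gene *Egr1* (0.35 and 0.46), all above any pair within the family. For *Fos* they were *Dusp1*, a phosphatase gene that ends MAP kinase signals (0.34 and 0.35), *Btg2* (0.26 and 0.27) and *Zfp36*, which encodes an mRNA decay factor (0.23 and 0.29). For *Junb* they were the nuclear receptor gene *Nr4a1* (0.22 and 0.26), the cell cycle inhibitor gene *Cdkn1a* (0.22 and 0.23) and the kinase gene *Pim1* (0.21 and 0.28), while *Hspa1a* was at 0.07 and 0.04 with *Junb*. *Fosl2* shared *Cdkn1a* (0.14 and 0.19) and *Nr4a1* (0.13 and 0.15) with *Junb*, followed by the cytokine gene *Osm* (0.12 and 0.24).

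The remaining leading values were smaller. *Jund* led with *Klf2* (0.16 and 0.20), *Hspa1a* and *Hspa1b*, *Fosb* with *Klf4* (0.15 and 0.21), *Mcl1* and *Zfp36*, *Atf3* with *Rhob* (0.14 and 0.17) and the chaperone gene *Hsp90aa1*, and *Maff* with the chemokine gene *Cxcl2* (0.13 and 0.11), *Sqstm1* and *Plek*. *Batf* reached only 0.04 and 0.05, with *Vim*, followed by *Tppp3* and *Anxa2*, which in such sparse counts is no finding.

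*Inhba* encodes the subunit of activin A, which the study followed in AMs, and AP-1 levels were compared between thinned cells with and without an *Inhba* UMI. Such cells were 346 of 5590 in the control, 6.19% (5.57 to 6.85), and 1393 of 6937 in the tumor library, 20.1% (19.1 to 21.0). In the same thinned cells *Sftpc*, a gene of cells outside the sort, was seen in 5.55% of control and 3.17% of tumor cells. The part of free RNA in the *Inhba* UMIs was not tested. *Junb* and *Fosl2* were the members whose interval lay above 0 in both libraries, 2 of 10, against 2.84% of 8016 genes. Many of the 8016 genes have few UMIs and therefore wide intervals. *Junb* was at 1120.3 CPM in *Inhba*-positive and 832 CPM in *Inhba*-negative cells of the control library, which is 0.43 (0.35 to 0.51) as log2, and at 1834 and 1689 CPM in the tumor library, which is 0.12 (0.09 to 0.15) as log2. *Fosl2* was at 357 and 237 CPM in the control, which is 0.59 (0.45 to 0.72) as log2, and at 509.7 and 412 CPM in the tumor library, which is 0.31 (0.24 to 0.37) as log2. *Jun* was lower in *Inhba*-positive cells, at 241 and 337 CPM in the control, which is −0.48 (−0.65 to −0.32) as log2, and at 266 and 429 CPM in the tumor library, which is −0.69 (−0.77 to −0.61) as log2. *Fos* was also lower, at −0.11 (−0.21 to −0.01) and −0.20 (−0.24 to −0.16). The median over the members was −0.09 in the control and 0.00 in the tumor library, against −0.03 and −0.01 over the 8016 genes.

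The genes around AP-1 were counted in 5 lists, and their counts are to be read against the 4.30% of genes at least 2-fold higher and 5.16% at least 2-fold lower in the tumor library. The lists were chosen with earlier results of these data known, so the counts are descriptions and no enrichment is read from them. Of 20 immediate early genes outside AP-1, 6 were at least 2-fold higher and none lower, with a median log2 ratio of 0.61. The highest was *Dusp2*, a phosphatase gene, at 1.33 and 8.17 CPM, which is 2.62 (2.29 to 2.97) as log2, and the lowest *Ier5* at −0.35 (−0.38 to −0.31). Of 25 inflammatory and remodelling genes known as AP-1 targets, 23 had enough UMIs, and of these 10 were at least 2-fold higher and 1 lower, with a median of 0.73. The highest was *Ptgs2*, the cyclooxygenase 2 gene, with 20 and 1147 UMIs and a log2 value of 5.76 (5.12 to 6.47), and the lowest *Mmp12*, the macrophage elastase gene, at 124 and 59.0 CPM and −1.07 (−1.12 to −1.01). *Inhba*, also on that list, was at 45.6 and 148 CPM, which is 1.70 (1.64 to 1.76) as log2.

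Of the 21 genes of the TLR4, MyD88, JNK and MAP kinase pathway, none passed 2-fold in either direction and the median was 0.16. *Cd14*, the coreceptor, was the highest at 203.5 and 374 CPM, which is 0.88 (0.85 to 0.91) as log2, and *Myd88* the lowest at −0.23 (−0.29 to −0.17). Of 22 other bZIP genes, 3 were at least 2-fold higher and 1 lower, with a median of 0.07, from *Maf* at 1.02 and 5.70 CPM and 2.48 (2.11 to 2.88) to *Batf3* at 13.8 and 6.35 CPM and −1.12 (−1.28 to −0.95). Of 11 heat shock genes, 2 were at least 2-fold higher, *Hspa1a* at 1.23 (1.19 to 1.27) and *Hspa1b* at 1.55 (1.51 to 1.59), the highest of the list, and none lower, with *Hsp90ab1* the lowest at −0.07 (−0.09 to −0.06) and a median of 0.14. The median of the 10 AP-1 members was 0.36, and no test between lists was made.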

How the data were processed

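The authors sorted AMs from vehicle-control and tumor-bearing mice and made 1 10x Genomics 3′ library per condition. The deposited values are raw UMI counts per gene and barcode, not normalized. The submitters' processing notes name Cell Ranger 4.0.0, bcl2fastq 2.20 and mm10, whereas the paper's methods name a later Cell Ranger release. Gene symbols were found for 32158 of the 32285 identifiers.

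From these counts, barcodes with at least 500 genes and at most 10% mitochondrial UMIs were kept. Depth was 64850143 UMIs in the control and 68801889 UMIs in the tumor library. Counts were summed over cells and scaled to CPM. Called means at least 2-fold among genes with at least 10 UMIs on each side. Cells are not replicates, so no p-value was computed. Cells were thinned to 3800 UMIs, drawn without replacement, a depth set from the 10th percentile of UMIs per cell. Scrublet marked 0 doublets by its own threshold, which did not work, so doublets were kept and the highest-scoring 6% were left out as an alternative. Promoters and gene positions came from RefSeq and GENCODE on GRCm38.

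The genes named are the 10 members, for each member seen in at least 10% of thinned cells the 3 most similar genes, the highest and the lowest gene of each list, and *Apoe*, *S100a6*, *Inhba* and *Hspa1a*. A gene that this rule names is not reported here. Other genes named are markers used in checks or were chosen after their values were seen. The members and lists were chosen with earlier results of these data known. Alternatives changed the quality filter, doublets, cells of other types, scaling, weighting of cells, heat shock cells, thinning, the Apoe+S100a6 limits and the correlation. Ratios, intervals, thinning and r were tested on simulated data. Software was scanpy 1.11.5, scipy 1.17.1, numpy 2.4.6, matplotlib 3.10.9 and pandas 2.3.3 under Python 3.11.15.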

Additional observations from a re-analysis of the deposited data

Results flagged for a closer look

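The quality filter left out 2300 control and 1509 tumor barcodes, which entered no comparison of the report and only in part the alternative with a looser filter. In them, 8 of the 10 members had a tumor library level whose Poisson interval lay above that of the control library, against 11.8% of the 8520 genes with at least 10 UMIs in the left-out barcodes of each library, many of which have few UMIs and wide intervals. *Junb* was at 519 CPM (493 to 545) in the control and 1408 CPM (1355 to 1462) in the tumor library, and *Fosl2* at 295 and 646 CPM. *Fosb* was at 752 and 1218 CPM, *Fos* at 507 and 845 CPM, *Jun* at 442 and 499.9 CPM, *Jund* at 466 and 529 CPM, and *Maff* at 77.7 and 115 CPM. *Fosl1* was at 4.67 and 20.1 CPM, from 14 and 39 UMIs. *Atf3* (272 and 257 CPM) and *Batf* (21.0 and 16.5 CPM) had overlapping intervals. Whether the effect of the tumor differs between Apoe+S100a6-high and other cells could not be assessed, because the control library held only 29 of the former.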

How the results depend on the processing

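The number of members at least 2-fold higher in the tumor library was 1 under 6 alternatives and 2, *Fosl1* and *Junb*, when centred on the median gene, when averaged over cells and when thinned to 1 depth. None was 2-fold lower under the alternatives run. *Jun* turned from 0.20 to −0.39 in cells without *Hspa1a* and *Hspa1b* UMIs, and from 0.33 to −0.33 there with the Apoe+S100a6-high cells left out. The members at least 2-fold lower in Apoe+S100a6-high cells numbered 1, *Jun*, without the highest-scoring 6% by Scrublet, by mean of per-cell levels, and with the Apoe and S100a6 limits at 1 and 3 or at 3 and 8, and 0 otherwise. *Fos* in that contrast turned from −0.075 to 0.037 when centred and to 0.053 in cells without *Hspa1a* and *Hspa1b* UMIs. At limits of 3 and 8, *Junb* went from 0.09 to −0.01 and *Fosl2* from 0.03 to −0.07. The 9 members with an interval above 0 among other cells became 8 without those UMIs. The mean of per-cell levels has no such interval, and there the ratio was above 0 for 10, with *Batf* at 0.02. Pairs with r of at least 0.2 in both libraries numbered 2 without the highest-scoring 6% and with a second thinning seed. They numbered 7 on log2(UMIs per 10000 + 1) without thinning, which changed the scaling and the thinning together. In cells without *Hspa1a* and *Hspa1b* UMIs, the 1 pair was *Junb* and *Fosb* in place of *Jun* and *Fos*. The 2 members higher in *Inhba*-positive cells stayed 2. The cause of these shifts was not tested. A sum of *Apoe* and *S100a6* of at least 10 UMIs per 10000 was added after seeing the data and left all 3 counts it touches the same. No paired analysis was possible because each condition has 1 library. Depth limits *Fosl1* and *Batf* most, and the intervals do not cover variation between animals.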

Other observations

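In the tumor library, other genes around AP-1 also differed between Apoe+S100a6-high and other cells, named here after their values were seen. The gene lists were chosen with earlier results of these data known. Of 22 inflammatory and remodelling genes with enough UMIs, 4 were at least 2-fold higher in Apoe+S100a6-high cells, against 3.04% of 10979 genes. *Spp1*, the osteopontin gene, was at 5152 and 1915 CPM, *Vegfa*, an angiogenic factor gene, at 67.1 and 21.2 CPM, the chemokine gene *Ccl2* at 56.9 and 19.7 CPM, and *Ptgs2* at 36.6 and 12.6 CPM. Of 20 immediate early genes outside AP-1, *Dusp2* was at least 2-fold higher, at 15.4 and 6.71 CPM, which is 1.20 (0.93 to 1.46) as log2, and *Ier5* at least 2-fold lower. *Ier5* was at 116 and 237 CPM, which is −1.03 (−1.11 to −0.95) as log2. *Hspb1*, at 0.951 and 3.30 CPM, was with *Hspa1a* and *Hspa1b* among the 3 of 11 heat shock genes at least 2-fold lower, against 3.22% of 10979 genes. *Marco*, a scavenger receptor gene of AMs, was at 22.7 and 244 CPM, which is −3.42 (−3.60 to −3.25) as log2. *Inhba* was at 139.6 and 149.8 CPM, which is −0.10 (−0.18 to −0.02) as log2.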
